A study of Homo sapiens with 60 samples.

Results

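The genes described here are 10 genes of the NF-kB pathway and its negative feedback: TNFAIP3, NFKBIA, TNIP1, NFKB1, NFKB2, RELB, ICAM1, TNFAIP2, IER3 and BIRC3. They were chosen by symbol, with all their probe sets, out of 19775 genes with values. Values were available for 9 of the 10 genes, on 17 probe sets, and BIRC3 was not analysed here. RNA had been hybridised to 60 arrays from 3 human breast cell lines, in 12 groups of 5 arrays. HB4a is a normal breast epithelial line. C5.2 was derived from HB4a by transfection of the full-length HER-2 cDNA, so it stands for 1 transfected derivative. SKBR3 is a mammary adenocarcinoma line that overexpresses HER-2. Each line received DMSO vehicle, 30 nM doxorubicin, 20 nM rapamycin, or both drugs at those doses. Doxorubicin is an anthracycline that damages DNA through topoisomerase II, and rapamycin inhibits the mTORC1 kinase complex. The 5 arrays of a group carry the experiment numbers 1, 2, 3, 4 and 6 and come from independent experiments. The duration of treatment was not given in the sources used here. The medium of HB4a and C5.2 contained insulin and hydrocortisone, a glucocorticoid, and that of SKBR3 did not. Between SKBR3 and the other lines, line and medium therefore cannot be told apart. The values are log2 expression levels per probe set, and each gene was read from its brightest probe set over all arrays.

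NF-kB is a family of dimeric transcription factors that inhibitor proteins hold in the cytoplasm of unstimulated cells. Cytokine receptors, Toll-like receptors and DNA breaks can activate the IkB kinase complex, which marks the inhibitors for degradation and frees the dimers to enter the nucleus. Among the first genes that the dimers switch on are their own inhibitors. NFKBIA encodes IkB-alpha, which binds the dimers and returns them to the cytoplasm. TNFAIP3 encodes A20, a ubiquitin-editing enzyme that shuts off signalling upstream of the kinase, and TNIP1 encodes ABIN-1, a ubiquitin-binding partner of A20. NFKB1, NFKB2 and RELB encode subunits of the dimers and are themselves NF-kB targets. The rest are further targets: ICAM1 is an adhesion molecule bound by leukocyte integrins, TNFAIP2 is a TNF-induced protein involved in membrane protrusions, and IER3 is an immediate early gene linked to cell survival.

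Sequence windows of 300 bases, from 250 before to 50 after a gene's start, were held by RefSeq on GRCh38.p14 for 8 of the 10 genes, not for RELB and IER3. Both strands were searched for the kB consensus motif, the degenerate sequence of 10 bases that NF-kB dimers bind. Of the 12 windows of the listed genes, 7 windows of 6 genes held a match, whereas 11.3% of 35116 windows of that length did. The windows shown are those of the genes that changed in SKBR3 cells under doxorubicin and whose window held a match. They run 5′ to 3′ on the gene's strand, and capitals mark the matches. TNFAIP3 lies at chr6:137867009-137867308 on the plus strand, with matches at 67 to 58 and 55 to 46 bases before the start. NFKBIA lies at chr14:35404700-35404999 on the minus strand, with a match at 81 to 72 bases before it. For TNIP1, at chr5:151080985-151081284 on the minus strand, the match lies 42 to 33 bases before the start. For NFKB1, at chr4:102501109-102501408 on the plus strand, it lies 49 to 40 bases before it. A match is a run of letters, and binding was not measured.
TNFAIP3: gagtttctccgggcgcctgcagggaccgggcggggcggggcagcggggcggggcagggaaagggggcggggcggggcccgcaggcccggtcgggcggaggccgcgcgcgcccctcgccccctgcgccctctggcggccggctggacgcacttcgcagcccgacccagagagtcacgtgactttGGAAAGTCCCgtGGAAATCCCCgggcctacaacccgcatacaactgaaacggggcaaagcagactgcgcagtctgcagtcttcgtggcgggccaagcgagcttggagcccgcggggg
NFKBIA: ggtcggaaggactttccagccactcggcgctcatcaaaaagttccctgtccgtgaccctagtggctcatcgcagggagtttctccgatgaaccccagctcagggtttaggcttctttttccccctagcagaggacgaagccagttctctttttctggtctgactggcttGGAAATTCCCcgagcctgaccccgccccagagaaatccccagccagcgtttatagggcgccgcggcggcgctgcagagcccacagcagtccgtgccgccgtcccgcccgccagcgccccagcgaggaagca
TNIP1: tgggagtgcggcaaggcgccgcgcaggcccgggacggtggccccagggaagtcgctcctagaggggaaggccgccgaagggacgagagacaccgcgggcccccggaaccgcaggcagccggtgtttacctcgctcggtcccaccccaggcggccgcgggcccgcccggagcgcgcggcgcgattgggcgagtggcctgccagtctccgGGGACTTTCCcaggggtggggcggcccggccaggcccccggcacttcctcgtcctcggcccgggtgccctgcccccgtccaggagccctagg
NFKB1: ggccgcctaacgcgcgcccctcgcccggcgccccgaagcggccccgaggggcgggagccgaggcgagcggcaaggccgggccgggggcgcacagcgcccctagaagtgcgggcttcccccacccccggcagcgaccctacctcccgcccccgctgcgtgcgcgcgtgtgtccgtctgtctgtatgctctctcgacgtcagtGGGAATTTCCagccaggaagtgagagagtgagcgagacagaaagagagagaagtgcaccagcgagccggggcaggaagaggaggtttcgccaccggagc
The windows of ICAM1 and TNFAIP2 held no match to these letters.

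ERBB2, which encodes HER-2, had a mean log2 level of 6.67 in HB4a, 12.06 in C5.2 and 11.48 in SKBR3 under vehicle, in the order the line labels give. Array medians, which stand for background, lay between 1.41 and 1.71. The 8 measured leukocyte markers averaged 0.96 to 1.60 on the vehicle arrays of the 3 lines, with 5 of the 8 at background on all 5 vehicle arrays in HB4a, 5 in C5.2 and 6 in SKBR3. PTPRC, the pan-leukocyte antigen, was among these in each line. In each line 2 of the 8 were above background on all vehicle arrays: CD3E (mean 2.53) and CD14 (2.48) in HB4a, CD3E (2.20) and CD14 (4.49) in C5.2, and CD3E (2.03) and CD74 (2.52) in SKBR3. The 7 epithelial markers averaged 8.72 to 8.91 in HB4a, 6.53 to 7.39 in C5.2 and 8.10 to 8.79 in SKBR3. The 8 fibroblast markers averaged 4.07 to 4.22 in C5.2, 2.72 to 2.88 in HB4a and 1.45 to 1.66 in SKBR3. The list was not higher in C5.2 as a whole. COL3A1 (10.9 against 2.74 in HB4a) and THY1 (6 against 2.51) were higher, and DCN was lower (6.01 against 7.42). COL1A1 (4.36 against 4.46) and PDGFRB (3.37 against 3.09) lay close together, and COL1A2, LUM and PDGFRA were at background in both lines. All 7 epithelial markers were lower in C5.2 than in HB4a at an adjusted p under 0.05, where 49.2% of all genes were called. The 4 measured basal markers averaged 5.56 to 5.86, 3.87 to 4.56 and 0.73 to 1.45 in HB4a, C5.2 and SKBR3. One SKBR3 vehicle array, number 3, stood apart from the other 4. It had the highest basal mean (1.45 against 0.73 to 1.0), the highest epithelial mean (8.79 against 8.10 to 8.28) and the highest TNFAIP3 (3.94 against 2.18 to 2.79). SKBR3 results that rest on it are given with and without it. CDH1, 1 of the 7 epithelial markers, was at background on 4 of the 5 SKBR3 vehicle arrays (mean 1.37, SD 2.07), so its level there came mainly from 1 array. It was at background on all arrays of the treated SKBR3 groups. In RNA from whole cultures, fewer cells of a type and less RNA per cell cannot be told apart.

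In SKBR3 cells doxorubicin raised most of the listed genes while changing few others. With no filter on low values, so that all 9 genes were tested in every comparison, limma called 6 of the 9 at an adjusted p under 0.05, all higher: TNFAIP3, NFKBIA, TNIP1, NFKB1, RELB and ICAM1. Over all 19775 genes the same comparison called 0.445%, and 0.384% as higher. The median difference was 0.61 over the listed genes and 0.00 over all genes, on the log2 scale. In HB4a the same drug and dose raised 1 of the 9, ICAM1, where 4.4% of all genes were called. In C5.2 it changed 0 of the 9, none of them at an unadjusted p under 0.05 either, where 1.22% of all genes were called.

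Rapamycin gave another pattern across the lines. It raised TNFAIP3 in HB4a and in C5.2, the only gene of the 9 called in either line without a filter, where 0.971% and 4.31% of all genes were called. In SKBR3 it changed 0 of the 9 (2 at an unadjusted p under 0.05), where 5.58% of all genes were called, a share near which 0 of 9 lies. Both drugs together changed 4 of the 9 in HB4a, 2 in C5.2 and 5 in SKBR3, where 7.34%, 6.79% and 7.17% of all genes were called. These comparisons share each line's vehicle arrays, so the 3 treatments of a line are not independent of each other.

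The remaining values come from tests limited to genes with a log2 level above 5 on at least 5 arrays of the fit. By that rule 6 of the 9 genes were tested in HB4a, 5 in C5.2 and 5 in SKBR3. Calls were 1 under doxorubicin (11.4% of 6167 genes), 2 under rapamycin (3.18%) and 3 under both drugs (17.4%) in HB4a. They were 0 (3.26% of 6292 genes; 0 also at an unadjusted p under 0.05), 1 (17.4%) and 2 (21%) in C5.2, and 4 (0.837% of 5977 genes), 1 (18.3%) and 3 (22%) in SKBR3. With only the vehicle and doxorubicin arrays in the fit, the SKBR3 doxorubicin count was 1 instead of 4, and leaving out 1 array at a time gave 2 to 4. In SKBR3, TNFAIP3 passed this filter only through its doxorubicin and combined arrays, and such a gene had to differ. Where a gene missed the filter, a lower filter of log2 3 was used and is named. NFKB2 passed neither filter, and ICAM1 passed neither in C5.2.

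TNFAIP3, the gene of A20, had larger differences in SKBR3 under doxorubicin and under both drugs than the other 8 listed genes with values. In SKBR3 its log2 level on arrays 1, 2, 3, 4 and 6 was 2.69, 2.76, 3.94, 2.18 and 2.79 under vehicle and 4.43, 5.55, 4.93, 4.89 and 5.03 under doxorubicin. It was 2.83, 2.83, 2.28, 2.09 and 2.62 under rapamycin and 4.36, 5.11, 5.46, 5.19 and 5.04 under both drugs. The 10 arrays with doxorubicin all lay above the 10 without it, and the vehicle array nearest to them was number 3. Doxorubicin raised the level by 2.10 ± 0.28 (SE), or 4.27-fold (adjusted p = 0.00016), and both drugs by 2.16 ± 0.28, or 4.47-fold (adjusted p = 2.14e-05). Since TNFAIP3 passed the filter here only through arrays with doxorubicin, the test without a filter also counts. With no filter the adjusted p was 4.24e-05 and 9.79e-06. Rapamycin alone gave -0.34 ± 0.28 (adjusted p = 0.452, 95% interval -0.88 to 0.20 from the fit without a filter). Without vehicle array 3 the differences were 2.36 (adjusted p = 1.13e-05), 2.43 (adjusted p = 2.61e-06) and -0.08 (adjusted p = 0.884).

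In HB4a the drug that raised TNFAIP3 was rapamycin. Under vehicle its log2 level on arrays 1, 2, 3, 4 and 6 was 5.04, 5.09, 4.71, 5.06 and 4.32, and under rapamycin 6.74, 7.20, 6.64, 7.46 and 5.57. Under both drugs it was 7.17, 6.77, 7.42, 6.81 and 6.07. The rapamycin and combined arrays all lay above the vehicle arrays. Rapamycin raised it by 1.88 ± 0.33, or 3.67-fold (adjusted p = 0.00174), and both drugs by 2.00 ± 0.33, or 4.01-fold (adjusted p = 0.000201). Under doxorubicin alone the levels were 5.56, 6.36, 5.19, 5.42 and 4.46, which overlap vehicle. Each of the 5 was above the vehicle array of the same number. The difference of 0.55 ± 0.33 was not called (adjusted p = 0.308), but was with the experiment number as a block (adjusted p = 0.0381).

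In C5.2, the HER-2 transfectant of HB4a, TNFAIP3 rose with rapamycin as well. TNFAIP3 was 4.16, 4.14, 5.46, 5.02 and 4.75 under vehicle and 5.61, 5.09, 5.96, 6.08 and 5.99 under rapamycin. It was 5.66, 5.04, 6.08, 5.996 and 5.30 under both drugs and 4.44, 3.76, 5.47, 5.22 and 4.75 under doxorubicin. The rapamycin and combined arrays overlap vehicle through vehicle array 3. The doxorubicin arrays ran from 3.76 to 5.47, against 4.14 to 5.46 under vehicle. Rapamycin raised it by 1.04 ± 0.31, or 2.05-fold (adjusted p = 0.0255), and both drugs by 0.91 ± 0.31, or 1.88-fold (adjusted p = 0.0417). Doxorubicin gave 0.02 ± 0.31 (adjusted p = 0.984, 95% interval -0.60 to 0.64). The rapamycin call was lost without vehicle array 1 or 2 or rapamycin array 3, 4 or 6 (adjusted p up to 0.0831). The call for both drugs was lost without vehicle array 1, 2 or 6 or combined array 1, 3 or 4 (adjusted p up to 0.115), with no filter (adjusted p = 0.0717), and when arrays were centred on their medians. The second probe set of TNFAIP3 gave 1.84 under rapamycin in HB4a, 1.02 in C5.2 and -0.12 in SKBR3, and 1.76 under doxorubicin in SKBR3.

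**Figure D1:**
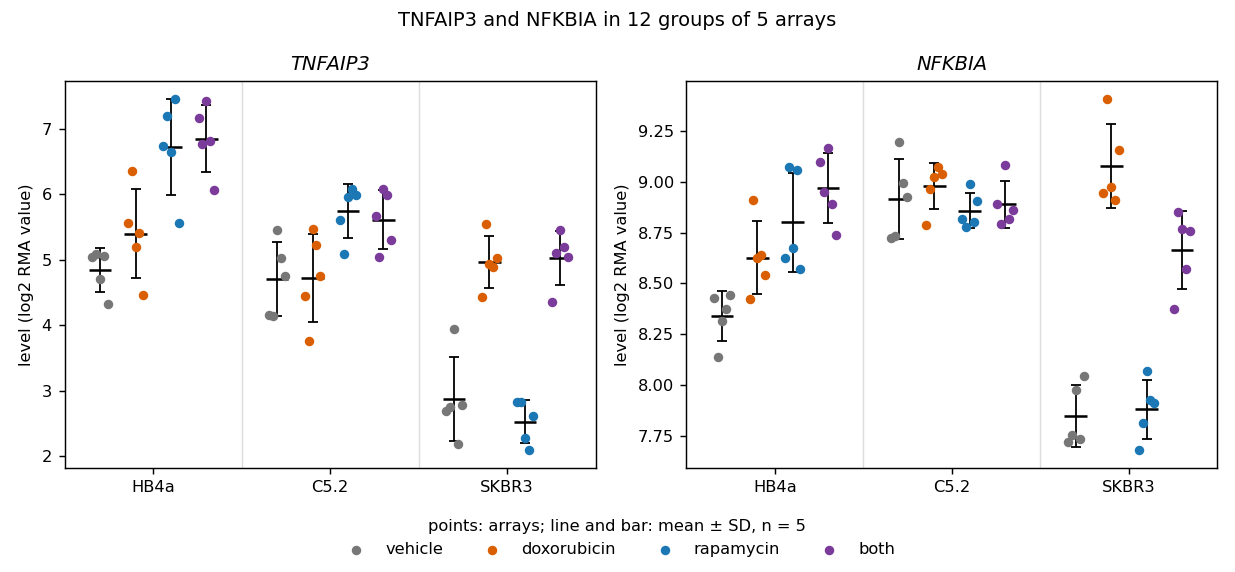
Log2 level of TNFAIP3 and of NFKBIA on each of the 60 arrays, by line and treatment (points, with bars for the group mean and SD, n = 5). In SKBR3 all doxorubicin and combined arrays lie above all vehicle and rapamycin arrays for both genes, and in HB4a the TNFAIP3 rapamycin and combined arrays lie above vehicle.

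NFKBIA, the gene of IkB-alpha, rose with TNFAIP3 under doxorubicin in SKBR3. Its log2 level there was 7.72, 7.76, 7.98, 7.74 and 8.05 under vehicle and 8.94, 9.41, 8.98, 8.91 and 9.15 under doxorubicin. Both drugs gave 8.37, 8.85, 8.77, 8.57 and 8.76, and rapamycin 7.68, 7.81, 8.07, 7.93 and 7.92. The combined arrays all lay between the vehicle and the doxorubicin arrays. Doxorubicin raised NFKBIA by 1.23 ± 0.11, or 2.35-fold (adjusted p = 5.02e-07), and both drugs raised it by 0.82 ± 0.11, or 1.76-fold (adjusted p = 2.7e-05). Rapamycin gave 0.03 ± 0.11 (adjusted p = 0.876). The combined level was 0.41 ± 0.11 below doxorubicin alone (difference -0.41, adjusted p = 0.0109).

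IkB-alpha transcripts also rose in HB4a under rapamycin and under both drugs, and no difference was called in C5.2. In HB4a they were 8.43, 8.14, 8.31, 8.37 and 8.44 under vehicle, 8.62, 9.07, 8.68, 9.05 and 8.57 under rapamycin, and 9.10, 8.95, 9.17, 8.89 and 8.74 under both drugs. Neither treated group overlapped vehicle. The rise was 0.46 ± 0.12 under rapamycin (adjusted p = 0.0272) and 0.63 ± 0.12 under both drugs (adjusted p = 0.000582). Doxorubicin gave 0.29 ± 0.12 (adjusted p = 0.119). The rapamycin call was lost without vehicle array 2 or 3 or rapamycin array 2 or 4 (adjusted p up to 0.0848), and with no filter (adjusted p = 0.0538). With the experiment number as a block its adjusted p was 0.0075. The second NFKBIA probe set lay near background, and with the mean of both the call for both drugs was also lost (adjusted p = 0.0781). In C5.2 the 20 arrays ran from 8.72 to 9.19, and the 3 treatments gave 0.06, -0.06 and -0.02 (adjusted p from 0.703 to 0.892, SE 0.09). Their 95% intervals reached from -0.24 to 0.25.

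TNIP1, whose product helps A20 act on its substrates, rose in SKBR3 as well. In SKBR3 its log2 level was 6.91, 7.33, 7.13, 6.99 and 6.99 under vehicle and 7.57, 7.88, 8.12, 7.69 and 8.11 under both drugs. The groups did not overlap, and the rise was 0.80 ± 0.12, or 1.75-fold (adjusted p = 4.9e-05). Doxorubicin alone gave 7.32, 7.81, 7.77, 7.60 and 7.53, a rise of 0.54 ± 0.12 (adjusted p = 0.0224). Here the groups touched, since vehicle array 2 was slightly above doxorubicin array 1. The doxorubicin call was lost without vehicle array 1, 4 or 6 or doxorubicin array 2, 3 or 4 (adjusted p up to 0.102). Rapamycin gave 0.34 ± 0.12 (adjusted p = 0.0459), a call that held in 1 of the 10 fits that left out 1 array, and not without vehicle array 3 (adjusted p = 0.0631). In HB4a and C5.2 the 3 treatments gave 0.04 to 0.40, with adjusted p from 0.0686 to 0.888. The second TNIP1 probe set, which passed the filter only in SKBR3, did not show the rise. It gave -0.13 ± 0.14 under doxorubicin (adjusted p = 1.0), 0.24 ± 0.14 under rapamycin (adjusted p = 0.246) and 0.15 ± 0.14 under both drugs (adjusted p = 0.43). With the mean of both probe sets the doxorubicin call was lost (adjusted p = 0.676).

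Among the subunit genes RELB, which pairs mainly with the NFKB2 product, rose with both drugs in all 3 lines (filter of log2 3). Under vehicle its log2 level ran from 2.87 to 3.82 in HB4a, 3.04 to 3.54 in C5.2 and 2.85 to 3.24 in SKBR3, and under both drugs from 3.96 to 5.17, 3.96 to 4.44 and 3.99 to 4.85. The groups did not overlap in any line. The rise was 0.97 ± 0.24 in HB4a (adjusted p = 0.00955), 0.90 ± 0.13 in C5.2 (adjusted p = 0.0001) and 1.42 ± 0.20 in SKBR3 (adjusted p = 5.54e-05). In SKBR3 doxorubicin alone gave 3.55, 4.47, 4.71, 4.59 and 4.39 against vehicle levels of 2.85, 3.11, 3.06, 3.04 and 3.24. That was a rise of 1.28 ± 0.20 (adjusted p = 0.000883), with array 1 the lowest. Single drugs gave 0.48 and 0.16 in HB4a and 0.22 and 0.34 in C5.2 for doxorubicin and rapamycin (adjusted p from 0.101 to 0.811). Blocking on experiment number brought rapamycin in C5.2 past the threshold (adjusted p = 0.0107). With no filter the adjusted p in SKBR3 was 0.000886 under doxorubicin and 5.88e-05 under both drugs.

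NFKB1, the gene of the p105 precursor of p50, changed in SKBR3 under doxorubicin. Its log2 level was 5.16, 4.96, 5.14, 5.18 and 5.13 under vehicle and 5.49, 5.87, 5.45, 5.70 and 5.85 under doxorubicin, with no overlap. The rise was 0.56 ± 0.12 (adjusted p = 0.0263). It was not called without vehicle array 2, 3 or 6 or doxorubicin array 2, 4 or 6 (adjusted p up to 0.111, and 0.0536 without vehicle array 3). With the experiment number as a block its adjusted p was 0.0034. Both drugs gave 0.23 ± 0.12 (adjusted p = 0.175). NFKB1 stayed between 3.33 and 5.15 on the HB4a and C5.2 arrays, where no treatment was called at the filter of log2 3 (adjusted p from 0.471 to 0.998). NFKB2, the gene of the p100 precursor of p52, lay between 1.81 and 2.98 on all 60 arrays, near background. No treatment was called for it without a filter (adjusted p from 0.451 to 1.0).

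ICAM1, the leukocyte adhesion molecule, responded to doxorubicin in HB4a as well as in SKBR3. In HB4a its log2 level was 3.69, 4.24, 4.09, 4.32 and 3.95 under vehicle and 4.45, 5.01, 5.11, 5.32 and 5.12 under doxorubicin. It was 4.95, 5.18, 5.32, 5.35 and 5.08 under both drugs and 4.09, 4.74, 4.62, 4.62 and 4.41 under rapamycin. Doxorubicin and combined arrays all lay above vehicle, and rapamycin arrays overlapped it. Doxorubicin raised ICAM1 by 0.95 ± 0.17, or 1.93-fold (adjusted p = 0.000888), and both drugs by 1.12 ± 0.17, or 2.17-fold (adjusted p = 8.13e-05). In HB4a ICAM1 passed the filter only through arrays with doxorubicin, and with no filter the adjusted p was 0.0011 and 0.000118. Rapamycin gave 0.44 ± 0.17, which was not called (adjusted p = 0.195) except with the experiment number as a block (adjusted p = 0.00492).

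In SKBR3 (filter of log2 3, passed only through arrays with doxorubicin) ICAM1 was 2.38, 2.80, 2.64, 2.04 and 2.97 under vehicle. Doxorubicin gave 3.54, 3.68, 3.83, 4.07 and 3.85, and both drugs 3.18, 3.66, 4.03, 3.44 and 3.72, all above vehicle. The rises were 1.23 ± 0.19 (adjusted p = 0.000794) and 1.04 ± 0.19 (adjusted p = 0.000771), and with no filter the adjusted p was 0.00075 and 0.000945. Rapamycin gave -0.31 ± 0.19 (adjusted p = 0.315). In C5.2 ICAM1 stayed low, from 2.03 to 3.12, and no treatment was called without a filter (adjusted p from 0.226 to 0.999). Another ICAM1 probe set gave 1.36 and 1.59 in HB4a and 1.75 and 1.14 in SKBR3, for doxorubicin and both drugs. The remaining ICAM1 probe set did not show a called rise. For the same treatments it gave 0.25 and 0.43 in HB4a (filter of log2 3, adjusted p = 0.385 and 0.0802). In SKBR3 it missed that filter and gave 0.07 and 0.14.

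TNFAIP2 and IER3 did not follow the inhibitors. TNFAIP2 fell in C5.2 under both drugs, from 5.08, 5.73, 5.79, 5.79 and 5.73 to 5.21, 5.28, 5.01, 4.97 and 5.21. Vehicle array 1 was the one that overlapped. The fall was by 0.49 ± 0.14 (difference -0.49, adjusted p = 0.0153). In SKBR3, at the filter of log2 3, TNFAIP2 gave 0.61 ± 0.19 under doxorubicin (adjusted p = 0.227) and 0.38 ± 0.19 under both drugs (adjusted p = 0.169). With the experiment number as a block both were called (adjusted p = 0.0241 and 0.0489). IER3, the survival-linked immediate early gene, ran from 7.90 to 8.77 in SKBR3 and from 9.22 to 9.92 in HB4a, and no treatment against vehicle was called in any line (adjusted p from 0.0717 to 1.0). With the block, SKBR3 IER3 was called under rapamycin (0.30, adjusted p = 0.000449) and under both drugs (0.33, adjusted p = 0.000183), and was higher than the vehicle array of the same number in all 10 pairs.

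**Figure D2:**
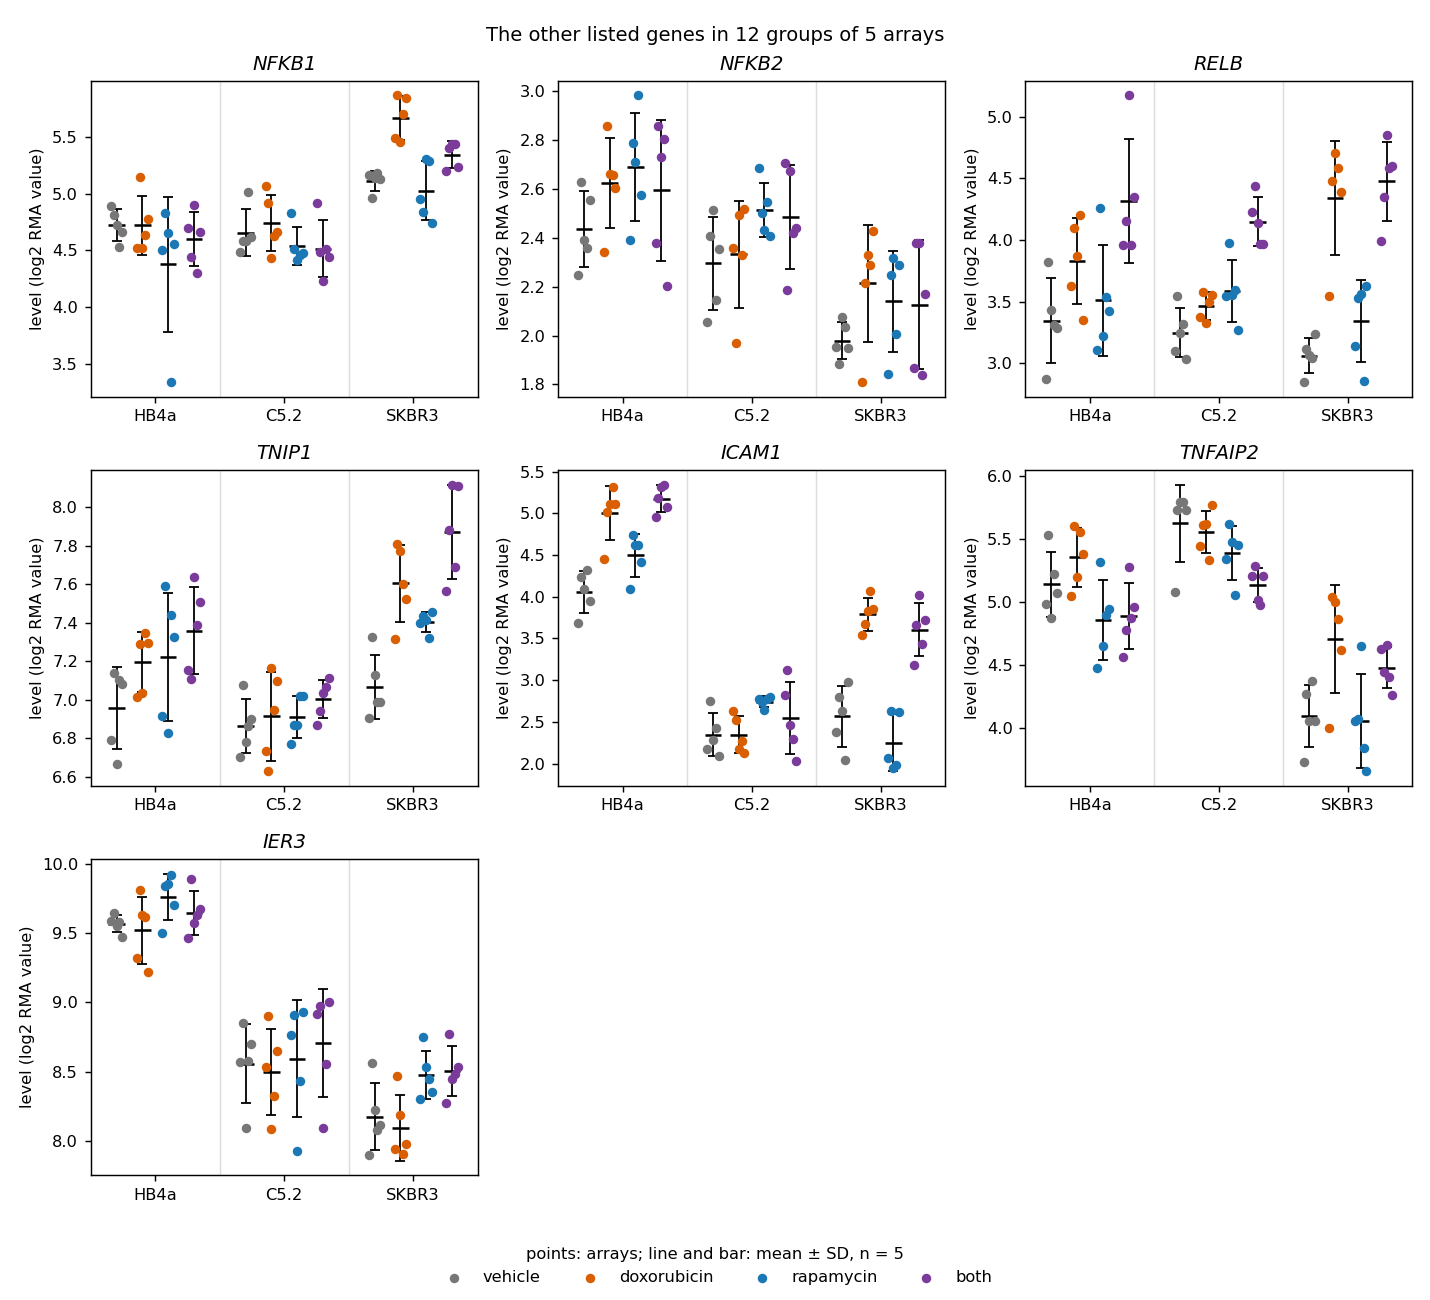
Log2 levels of the other 7 genes with values on each of the 60 arrays, by line and treatment (points, with bars for the group mean and SD, n = 5). The RELB group mean is highest under both drugs in each line, the ICAM1 levels of HB4a lie above those of C5.2, and NFKB2 stays between 1.81 and 2.98.

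**Figure D3:**
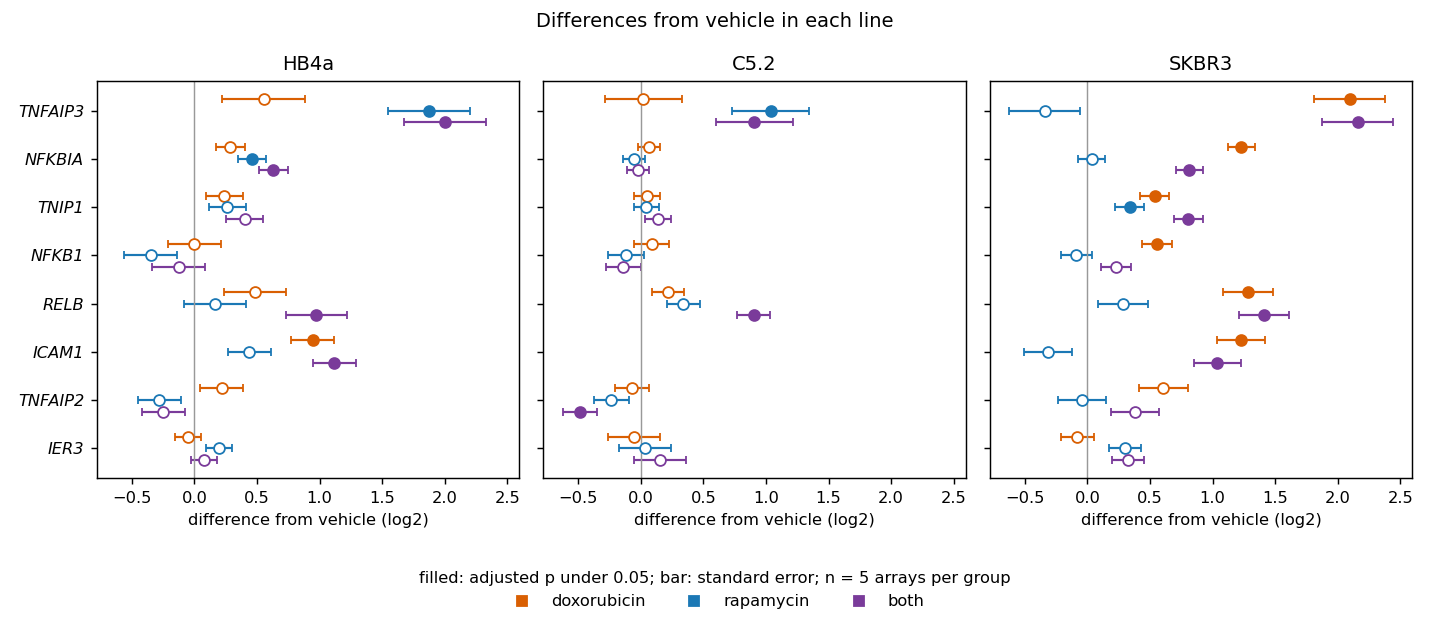
Difference from vehicle in each line for doxorubicin, rapamycin and both drugs, on the log2 scale, with bars of 1 SE and filled points at an adjusted p under 0.05; genes that passed neither filter in a line (NFKB2 in all, ICAM1 in C5.2) are not drawn. TNFAIP3 shows the widest separation, with rapamycin high in HB4a (1.88) and doxorubicin high in SKBR3 (2.10).

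The combination was also set against each drug alone. For TNFAIP3 in HB4a, both drugs exceeded doxorubicin alone by 1.45 ± 0.33 (adjusted p = 0.017), and rapamycin alone by 0.13 ± 0.33 (adjusted p = 0.856). The first of these was not called without doxorubicin array 6 (adjusted p = 0.0565). In SKBR3 both drugs exceeded rapamycin alone by 2.50 ± 0.28 (adjusted p = 3.18e-05, and 5.27e-06 with no filter) and doxorubicin alone by 0.06 ± 0.28 (adjusted p = 0.892). In C5.2 the combined level exceeded doxorubicin by 0.89 ± 0.31 (adjusted p = 0.0624), which was called with the block (adjusted p = 8.79e-05). Among the tested genes of the list, 1 was called in HB4a against doxorubicin and 1 against rapamycin, where 2.58% and 8.84% of all genes were. In C5.2 it was 1 and 0 (13.5% and 6.39%; 2 and 0 at an unadjusted p under 0.05), and in SKBR3 2 and 2 (22% and 0.552%).

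Other genes of the list differed between the combination and a single drug as well. ICAM1 in HB4a was 0.68 ± 0.17 higher with both drugs than with rapamycin (adjusted p = 0.014, and 0.0221 with no filter). In SKBR3, NFKBIA was 0.78 ± 0.11 higher (adjusted p = 0.000427). At the filter of log2 3 RELB was 1.13 ± 0.20 higher there (adjusted p = 0.0043). ICAM1 was 1.35 ± 0.19 higher (adjusted p = 0.000359, and 0.000325 with no filter). In both lines ICAM1 passed the filter used only through arrays with doxorubicin, so the test without a filter also counts. RELB in C5.2 was 0.68 ± 0.13 above doxorubicin (adjusted p = 0.00324) and 0.56 ± 0.13 above rapamycin (adjusted p = 0.0122). In HB4a it was 0.81 ± 0.24 above rapamycin (adjusted p = 0.0487), a call kept in 2 of the 10 fits that left out 1 array. IER3 in SKBR3 was 0.41 ± 0.13 above doxorubicin (adjusted p = 0.029), kept in 5 of 10. TNFAIP2 in C5.2 was 0.42 ± 0.14 below doxorubicin (difference -0.42, adjusted p = 0.0477), kept in 2 of 10. With the block, TNIP1 in SKBR3 was also called against doxorubicin (0.27, adjusted p = 0.0125) and rapamycin (0.47, adjusted p = 0.0016), NFKB1 in SKBR3 against doxorubicin (-0.33, adjusted p = 0.0187) and IER3 in C5.2 against doxorubicin (0.21, adjusted p = 0.0191).

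The combined difference was also set against the sum of the single differences. No gene of the list departed from the sum in any line (adjusted p = 1.0 in limma, 0% of all genes called), and at an unadjusted p under 0.05 the count was 0 in HB4a, 0 in C5.2 and 1 in SKBR3. That gene was NFKBIA, at -0.45 ± 0.16. For TNFAIP3 the departure was -0.43 ± 0.46 in HB4a, -0.15 ± 0.44 in C5.2 and 0.40 ± 0.40 in SKBR3. Their 95% intervals, -1.39 to 0.54, -1.02 to 0.72 and -0.36 to 1.17, are wide beside the changes themselves.

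Before any drug the lines already differed in these genes, as did most genes. Between C5.2 and HB4a 4 of the 6 tested genes differed, where 49.2% of all genes did. NFKBIA was 0.58 ± 0.10 higher in C5.2 (adjusted p = 1.25e-05) and TNFAIP2 0.49 ± 0.16 higher (adjusted p = 0.00918). ICAM1 was lower by 1.71 ± 0.18 (difference -1.71, 3.28-fold, adjusted p = 1.79e-10) and IER3 by 1.01 ± 0.17 (difference -1.01, adjusted p = 3.74e-06), with no overlap between the lines. TNFAIP3 gave -0.14 ± 0.33 (adjusted p = 0.752).

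SKBR3 had lower vehicle levels of most of these genes than the other lines. Against HB4a 6 of 7 tested genes were called, 5 of them lower, where 77.3% of all genes were called. TNFAIP3 was lower by 1.97 ± 0.32 (difference -1.97, 3.93-fold, adjusted p = 6.88e-07), ICAM1 by 1.49 (difference -1.49), IER3 by 1.39 (difference -1.39), TNFAIP2 by 1.04 (difference -1.04) and NFKBIA by 0.49 (difference -0.49). Against C5.2 5 of 6 were called, 4 of them lower (78.8% of all genes), with -1.84 for TNFAIP3, -1.53 for TNFAIP2, -1.07 for NFKBIA and -0.38 for IER3. Only NFKB1 was higher among the called genes, by 0.39 against HB4a (adjusted p = 0.0418) and 0.46 against C5.2 (adjusted p = 0.0019). Without SKBR3 vehicle array 3 the TNFAIP3 differences were -2.24 and -2.10, and 2 calls were lost: NFKB1 against HB4a (adjusted p = 0.0633) and IER3 against C5.2 (adjusted p = 0.0585). These last 2 were kept in 3 and 2 of the 10 fits that left out 1 array.

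The drug responses themselves were compared between lines, as the difference of 2 differences from vehicle. The doxorubicin response of NFKBIA was larger in SKBR3 than in HB4a by 0.94 ± 0.16 (adjusted p = 0.00023) and than in C5.2 by 1.17 ± 0.14 (adjusted p = 1.25e-06). That of TNFAIP3 was larger by 1.54 ± 0.45 (adjusted p = 0.0403) and 2.08 ± 0.42 (adjusted p = 0.00346). With no filter the first of these was not called (adjusted p = 0.0563) and the second was (adjusted p = 0.0038). At the filter of log2 3, RELB and ICAM1 also responded more in SKBR3 than in C5.2, by 1.06 ± 0.24 (adjusted p = 0.0108) and 1.23 ± 0.26 (adjusted p = 0.00496). ICAM1 passed that filter only through arrays with doxorubicin, and with no filter its adjusted p was 0.00654. Of all genes, 3.87% differed in their doxorubicin response between SKBR3 and HB4a, 1.47% between SKBR3 and C5.2 and 0.101% between C5.2 and HB4a. The TNFAIP3 difference from HB4a was kept in 5 of the 20 fits that left out 1 array, and that from C5.2 in all 20. Without SKBR3 vehicle array 3 the 2 were 1.81 (adjusted p = 0.00933) and 2.34 (adjusted p = 0.000421). With the experiment number as a block within each line, the adjusted p was 0.00118 against HB4a and 7.48e-06 against C5.2.

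The rapamycin response of TNFAIP3 went the other way. It was smaller in SKBR3 than in HB4a by 2.22 ± 0.45 (difference -2.22, adjusted p = 0.00104), where 5.03% of all genes differed, a call kept in all 20 fits that left out 1 array and at -1.95 without SKBR3 vehicle array 3 (adjusted p = 0.00335). Against C5.2 the difference was -1.38 ± 0.42 (adjusted p = 0.0438, where 6.23% of all genes differed), and without that array -1.11 (adjusted p = 0.0991). This difference from C5.2 was not called at the filter of log2 3 (adjusted p = 0.0519) or with no filter (adjusted p = 0.0779). Between C5.2 and HB4a no gene of the list was called for doxorubicin or rapamycin, with 1 at an unadjusted p under 0.05 for each. With the experiment number as a block within each line, ICAM1 was called for doxorubicin (difference -0.95, adjusted p = 0.00171) and NFKBIA for rapamycin (difference -0.52, adjusted p = 0.0244), both lower in C5.2. Without the block the TNFAIP3 rapamycin responses of this pair differed by -0.84 ± 0.47 (adjusted p = 0.979), with a 95% interval of -1.78 to 0.10. Over all genes limma called 0 rapamycin responses that differed between this pair of lines, with 356 at an unadjusted p under 0.05.

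The same block brought further single-drug responses of SKBR3 past the threshold. For doxorubicin RELB exceeded HB4a by 0.80 (filter of log2 3, adjusted p = 0.0356), and TNFAIP2 and TNIP1 exceeded C5.2 by 0.68 (adjusted p = 0.0309) and 0.49 (adjusted p = 0.00658). For rapamycin NFKBIA and ICAM1 lay below HB4a (differences -0.43, adjusted p = 0.0274, and -0.75, adjusted p = 0.00337). Against C5.2, ICAM1 lay below (difference -0.71, filter of log2 3, adjusted p = 0.0123) and IER3 above (0.27, adjusted p = 0.0183). Without the block the adjusted p of these 7 ran from 0.0868 to 0.533.

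Under both drugs, TNFAIP3 did not separate SKBR3 from HB4a (0.16 ± 0.45, adjusted p = 0.86), and no gene of the list did (2 at an unadjusted p under 0.05), where 9.82% of all genes were called. Against C5.2, 4 of the genes tested at log2 5 responded more in SKBR3, where 12.3% of all genes were called, and so did ICAM1 at the filter of log2 3. NFKBIA did so by 0.84 ± 0.14 (adjusted p = 5.61e-05), TNIP1 by 0.67 ± 0.15 (adjusted p = 0.00271), TNFAIP2 by 0.87 ± 0.24 (adjusted p = 0.013) and TNFAIP3 by 1.25 ± 0.42 (adjusted p = 0.0459). ICAM1 gave 0.84 ± 0.26 (adjusted p = 0.0306, and 0.0458 with no filter), a call kept in 10 of 20 fits that left out 1 array. The TNFAIP3 call was kept in 6 of 20 fits that left out 1 array, and without SKBR3 vehicle array 3 the value was 1.52 (adjusted p = 0.0106). It was lost at the filter of log2 3 (adjusted p = 0.0503) and with no filter (adjusted p = 0.072). NFKBIA responded less in C5.2 than in HB4a (difference -0.65 ± 0.14, adjusted p = 0.0274; 0.373% of all genes), lost when arrays were centred on their medians, quantile normalized again, or both probe sets averaged (adjusted p up to 0.704).

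Over the 12 groups the mean log2 level of TNFAIP3 was highest in HB4a with both drugs (6.85 ± 0.51, SD, n = 5) and with rapamycin (6.72 ± 0.73). C5.2 followed with rapamycin (5.75 ± 0.41) and with both drugs (5.62 ± 0.45). Next came HB4a with doxorubicin (5.40 ± 0.68), SKBR3 with both drugs (5.03 ± 0.41), SKBR3 with doxorubicin (4.97 ± 0.40) and HB4a with vehicle (4.84 ± 0.33). C5.2 with doxorubicin (4.73 ± 0.67) and with vehicle (4.71 ± 0.57) came before the last pair, SKBR3 with vehicle (2.87 ± 0.64) and with rapamycin (2.53 ± 0.33). Each group's range overlapped that of the next in this order, except at the gap of 1.84 between C5.2 vehicle and SKBR3 vehicle. NFKBIA was highest in SKBR3 with doxorubicin (9.08 ± 0.21) and lowest in SKBR3 with rapamycin (7.88 ± 0.14) and vehicle (7.85 ± 0.15), with the only break above that pair.

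Across the 60 arrays, each value taken from its line's mean, the genes most like TNFAIP3 among 7713 genes were CXCL8, NFKBIA, OPTN, TFPI2 and FTH1P5. CXCL8, the gene of the neutrophil chemokine interleukin-8, gave Pearson's r = 0.82, NFKBIA 0.80 and OPTN, the gene of the ubiquitin-binding protein optineurin, 0.74. TFPI2, a serine protease inhibitor, and FTH1P5, a ferritin pseudogene whose probe set may share sequence with other ferritin copies, gave 0.68 each. The arrays share the drug groups and the experiments, so these r are descriptions. Within lines NFKBIA and TNFAIP3 gave r = 0.87 in HB4a and 0.26 in C5.2, over 20 arrays each, and in SKBR3 the arrays with and without doxorubicin form separate clusters, so no r is given there. ICAM1 ranked 6 with r = 0.67 and TNIP1 ranked 25 with 0.62. TNFAIP2, NFKB1 and IER3 gave 0.12, 0.10 and 0.02.

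**Figure D4:**
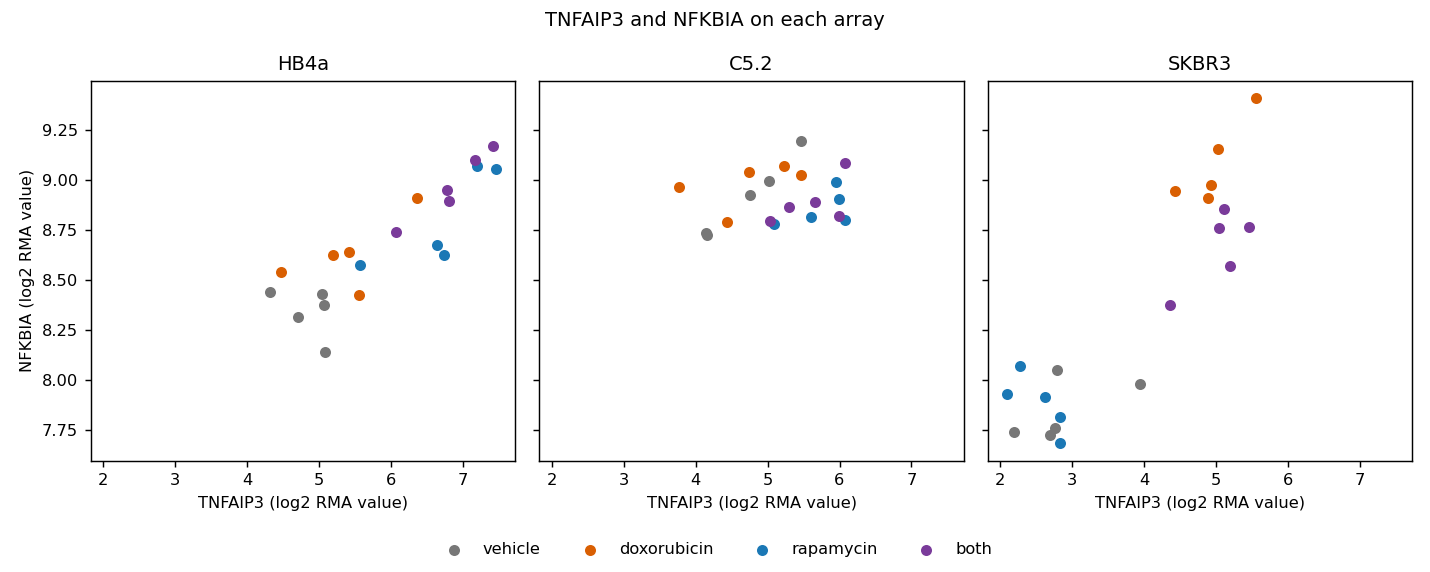
Log2 level of NFKBIA (vertical axis) against that of TNFAIP3 (horizontal axis) on each array, 1 panel per line, with treatments by colour. In SKBR3 the 10 arrays with doxorubicin lie apart from the 10 without it, and in C5.2 NFKBIA stays between 8.72 and 9.19 while TNFAIP3 runs from 3.76 to 6.08.

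Further genes of the pathway were read from lists of 17 receptors and adaptors, 12 kinases, 23 other inhibitors and A20 partners, 21 cytokines and chemokines, and 30 other targets with values. Their counts and tests come from the fit without a filter, since several of these genes exceeded log2 5 only on the arrays where they were high. The genes named were chosen among calls of the filtered fit. In SKBR3 under doxorubicin limma called 0 of 17 receptors and adaptors (1 at an unadjusted p under 0.05), 1 of 12 kinases, 1 of 23 inhibitors and partners, 5 of 21 cytokines and chemokines and 3 of 30 other targets, all higher, where 0.445% of all genes were called. The median difference was 0.21 over the cytokines and chemokines and 0.21 over the other targets, against 0.00 over all genes. IKBKE, an IKK-related kinase, rose by 0.73 ± 0.11 (adjusted p = 0.000704) and NFKBIE, the gene of IkB-epsilon, by 0.85 ± 0.17 (adjusted p = 0.0123). CXCL8 was at background on all 5 vehicle arrays and averaged 4.88 under doxorubicin, at least 3.38 higher on the log2 scale (adjusted p = 2.37e-08). CFB, complement factor B, rose by 2.41 ± 0.27 (adjusted p = 1.26e-05) and TAP1, a peptide transporter of antigen presentation, by 1.78 ± 0.18 (adjusted p = 1.76e-06). In the filtered fit the NFKBIE call was lost without doxorubicin array 2, 3, 4 or 6 (adjusted p up to 0.0699).

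Under both drugs the counts in SKBR3 were 1 of 17, 0 of 12 (3 at an unadjusted p under 0.05), 3 of 23, 9 of 21 and 9 of 30, all higher, where 7.17% of all genes were called. CXCL8 was at least 3.48 higher (adjusted p = 8.74e-09), CFB 2.59 ± 0.27 (adjusted p = 1.87e-06) and TAP1 1.84 ± 0.18 (adjusted p = 4.46e-07). Rapamycin called 0 of 17 (4 at an unadjusted p under 0.05), 1 of 12 lower, 0 of 23 (4 at an unadjusted p under 0.05), 1 of 21 higher, and 3 higher and 1 lower of 30, where 5.58% of all genes were called. IKBKE then fell by 0.50 ± 0.11 (difference -0.50, adjusted p = 0.00667). LTBR, the lymphotoxin beta receptor, gave 0.51 ± 0.16 (adjusted p = 0.0641).

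In HB4a, 5 of the 30 other targets were higher under doxorubicin, 2 under rapamycin and 8 under both drugs, where 4.4%, 0.971% and 7.34% of all genes were called. Their median differences were 0.21, 0.16 and 0.41, where the medians of all genes were 0.00, -0.02 and 0.00. Doxorubicin raised PLAU, the urokinase gene, by 1.34 ± 0.20 (adjusted p = 0.000314) and NINJ1, an adhesion and membrane rupture protein, by 0.82 ± 0.14 (adjusted p = 0.00137). Rapamycin raised PTGS2, the gene of cyclooxygenase-2, by 2.26 ± 0.32 (adjusted p = 0.00051), KLF6 by 1.49 ± 0.16 (adjusted p = 1.86e-05) and IL6, interleukin-6, by 1.56 ± 0.34 (adjusted p = 0.0219). Of the 21 cytokines and chemokines 3 were higher and 1 lower under doxorubicin, 2 higher under rapamycin and 2 higher under both drugs. Of the 17 receptors and adaptors 1 was higher and 1 lower under doxorubicin, 0 were called under rapamycin (3 at an unadjusted p under 0.05) and 1 was lower under both drugs. Of the 12 kinases limma called 0 under each treatment (3, 4 and 3 at an unadjusted p under 0.05), and of the 23 inhibitors and partners 0 under doxorubicin (5 at an unadjusted p under 0.05), 1 under rapamycin and 3 under both drugs, all higher.

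In C5.2, 3 of the 30 other targets were higher under doxorubicin and 3 under both drugs, where 1.22% and 6.79% of all genes were called. NINJ1 rose by 0.80 ± 0.12 (adjusted p = 0.000876) and TAP1 by 0.57 ± 0.10 (adjusted p = 0.00273) under doxorubicin, and under both drugs NINJ1 by 0.76 ± 0.12 (adjusted p = 0.000467) and SDC4, the syndecan-4 gene, by 0.66 ± 0.08 (adjusted p = 3.22e-05). Rapamycin raised 2 and lowered 1 of the 30, lowered 1 of 17 receptors and adaptors, and raised 1 and lowered 1 of 23 inhibitors and partners, where 4.31% of all genes were called. COMMD1, one of the inhibitors and partners, was lower (difference -0.40 ± 0.10, adjusted p = 0.0172), and MYD88, an adaptor of Toll-like receptors, gave -0.26 ± 0.09 (adjusted p = 0.101). Of the 21 cytokines and chemokines 2 were higher under doxorubicin, 1 higher under rapamycin, and 1 higher and 2 lower under both drugs. Of the 12 kinases limma called 0 under each treatment (1, 2 and 2 at an unadjusted p under 0.05). Under both drugs 3 of 7 epithelial markers were lower in HB4a, 2 in C5.2 and 1 in SKBR3, where 7.34%, 6.79% and 7.17% of all genes were called. The mean of the 7 epithelial markers ran from 8.45 to 8.70 in HB4a, 5.91 to 6.83 in C5.2 and 7.94 to 8.13 in SKBR3 under both drugs. The part of this shift in the results was not tested.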

How the data were processed

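Total RNA of 60 cultures was labelled by 3' in vitro transcription and hybridised to Affymetrix U133 Plus 2 arrays. The authors deposited log2 expression values summarised by RMA, per the submitters' processing notes; no version was given in the sources used here, and base 2 was inferred from the range of values. Of 54675 probe sets, 41091 had 1 gene symbol, 1801 several and 11777 none in the platform annotation, and symbols were updated by gene ID for 41037, giving 19775 genes.

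Each gene was read from its brightest probe set over all arrays. Genes above log2 5 on at least 5 arrays of the fit entered a linear model (limma 3.58.1, R 4.3.3; lmFit, eBayes with trend), over the 20 arrays of a line or the 40 of a pair of lines, with Benjamini-Hochberg adjustment over all genes tested and calls at an adjusted p under 0.05. Confidence intervals of 95% come from the fit without a filter. All listed genes were described. Of the other pathway lists, up to 2 genes per list, direction and treatment were eligible to be named. They had the largest change among genes called in the fit with the log2 5 filter whose groups of arrays did not overlap. Some passed that filter only through arrays where they were high. CXCL8 and the other genes most like TNFAIP3 were the 5 with the highest correlation. For the pathway lists the printed counts and p-values come from the fit without a filter, a choice made after seeing the data. A named gene is therefore not always called there. A count called without a replicate block was the main result.

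Experiment numbers paired the arrays of SKBR3, of HB4a apart from the combined group, and of C5.2 apart from vehicle with both drugs, where every correlation of deviations from the group means exceeded 0.1. For single genes, blocked values are given only for differences between groups paired in this way, and not for every such difference. The blocked fits held all arrays of each line. In HB4a and C5.2 the groups that the numbers did not pair therefore also entered the fits behind these values. The scripts were tested on simulated data. Alternatives were other filters, probe set means, array centring, quantile normalization, array weights, other sets of arrays, the replicate block and leaving out each array. The genes and lists were chosen with earlier results of these data known, so neither is independent evidence.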

Additional observations from a re-analysis of the deposited data

Results flagged for a closer look

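In 6 of 108 groups of 5 arrays, 1 array lay far from the other 4, about as many as the 1 in 20 that chance gives. NFKB1 was 3.33 on HB4a rapamycin array 4 (others 4.50 to 4.83), 5.02 on C5.2 vehicle array 4 (others 4.49 to 4.62), 4.83 on C5.2 rapamycin array 1 (others 4.41 to 4.51) and 4.96 on SKBR3 vehicle array 2 (others 5.13 to 5.18). RELB was 3.55 on SKBR3 doxorubicin array 1 (others 4.39 to 4.71). TNFAIP2 was 5.08 on C5.2 vehicle array 1 (others 5.73 to 5.79).

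The response to a treatment differed between lines, by the interaction in limma, in 14 cases, with 8 genes tested per treatment and pair of lines. The filter was log2 5, or log2 3 for genes that missed it. For doxorubicin, SKBR3 exceeded HB4a by 1.54 for TNFAIP3 and 0.94 for NFKBIA (3.87% of all genes called at log2 5). It exceeded C5.2 by 2.08 for TNFAIP3, 1.17 for NFKBIA, 1.06 for RELB and 1.23 for ICAM1 (1.47%). For rapamycin, the TNFAIP3 response of SKBR3 was lower than that of HB4a (difference -2.22, 5.03%) and of C5.2 (difference -1.38, 6.23%). For both drugs, SKBR3 exceeded C5.2 by 1.25 for TNFAIP3, 0.84 for NFKBIA, 0.87 for TNFAIP2, 0.67 for TNIP1 and 0.84 for ICAM1 (12.3%). The NFKBIA response of C5.2 was below that of HB4a (difference -0.65, 0.373%). With no filter TNFAIP3 was not called for doxorubicin against HB4a (adjusted p = 0.0563), or for rapamycin and both drugs against C5.2 (adjusted p = 0.0779 and 0.072).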

How the results depend on the processing

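No difference that was called in the main fit or under an alternative changed direction between them. Changes of sign among differences called in neither were not counted. Of the 30 counts of listed genes called, those given below moved by more than 1.5 times. The cause was not tested, except that a stricter filter or fewer arrays tests fewer genes. With no filter on low values, the counts that moved became 0 for rapamycin in SKBR3, rapamycin response of SKBR3 against C5.2, and 1 for rapamycin in HB4a, both drugs against rapamycin in C5.2, both drugs against doxorubicin in SKBR3, doxorubicin response of SKBR3 against HB4a, and 4 for both drugs against rapamycin in SKBR3, doxorubicin response of SKBR3 against C5.2, and 5 for both drugs in SKBR3. With a filter of log2 7, the counts that moved became 0 for doxorubicin in HB4a, both drugs against doxorubicin in HB4a, both drugs against rapamycin in HB4a, rapamycin in C5.2, both drugs in C5.2, both drugs against doxorubicin in C5.2, rapamycin response of SKBR3 against HB4a, rapamycin response of SKBR3 against C5.2, and 1 for rapamycin in HB4a, both drugs in HB4a, both drugs against rapamycin in SKBR3, doxorubicin response of SKBR3 against HB4a, doxorubicin response of SKBR3 against C5.2, and 2 for doxorubicin in SKBR3, C5.2 against HB4a in vehicle, SKBR3 against HB4a in vehicle, SKBR3 against C5.2 in vehicle, the combined response of SKBR3 against C5.2. With a filter of log2 3, the counts that moved became 0 for rapamycin in SKBR3, rapamycin response of SKBR3 against C5.2, and 1 for both drugs against rapamycin in C5.2, and 2 for both drugs against rapamycin in HB4a, and 4 for both drugs against rapamycin in SKBR3, doxorubicin response of SKBR3 against C5.2, and 5 for both drugs in SKBR3. With the mean of all probe sets of a gene, the counts that moved became 0 for doxorubicin in HB4a, both drugs against rapamycin in HB4a, both drugs against doxorubicin in C5.2, rapamycin in SKBR3, the combined response of C5.2 against HB4a, and 1 for rapamycin in HB4a, both drugs in HB4a, both drugs in C5.2, both drugs against rapamycin in SKBR3, C5.2 against HB4a in vehicle, doxorubicin response of SKBR3 against HB4a, and 2 for doxorubicin in SKBR3, the combined response of SKBR3 against C5.2. With arrays centred on their medians, the counts that moved became 0 for rapamycin in SKBR3, the combined response of C5.2 against HB4a, rapamycin response of SKBR3 against C5.2, and 1 for both drugs in C5.2, both drugs against doxorubicin in SKBR3. After quantile normalization, the counts that moved became 0 for the combined response of C5.2 against HB4a, and 1 for the combined response of SKBR3 against HB4a. With array weights, the counts that moved became 1 for doxorubicin response of C5.2 against HB4a, rapamycin response of C5.2 against HB4a, the combined response of SKBR3 against HB4a, and 2 for both drugs against doxorubicin in HB4a, rapamycin in C5.2, both drugs against doxorubicin in C5.2, rapamycin response of SKBR3 against HB4a, and 3 for the combined response of C5.2 against HB4a, and 4 for both drugs against doxorubicin in SKBR3, doxorubicin response of SKBR3 against C5.2. With the experiment number as a replicate block, the counts that moved became 1 for doxorubicin response of C5.2 against HB4a, rapamycin response of C5.2 against HB4a, and 2 for doxorubicin in HB4a, rapamycin in SKBR3, rapamycin response of SKBR3 against C5.2, and 3 for both drugs against doxorubicin in HB4a, both drugs against doxorubicin in C5.2, the combined response of C5.2 against HB4a, rapamycin response of SKBR3 against HB4a, the combined response of SKBR3 against HB4a, and 4 for both drugs against doxorubicin in SKBR3, doxorubicin response of SKBR3 against C5.2. With only the arrays compared in the fit, the counts that moved became 0 for doxorubicin in HB4a, both drugs against rapamycin in HB4a, both drugs against doxorubicin in C5.2, rapamycin response of SKBR3 against C5.2, and 1 for rapamycin in HB4a, doxorubicin in SKBR3, both drugs against rapamycin in SKBR3, and 2 for SKBR3 against HB4a in vehicle. With all 60 arrays in 1 fit, the counts that moved became 0 for both drugs against doxorubicin in C5.2, rapamycin in SKBR3, rapamycin response of SKBR3 against C5.2, and 1 for both drugs against doxorubicin in SKBR3, and 2 for both drugs against doxorubicin in HB4a. A further fit left out all arrays numbered 1 of HB4a and of SKBR3, all numbered 2 of C5.2, and HB4a rapamycin array 4. SKBR3 vehicle array 3 stayed in that fit. Its counts that moved became 0 for rapamycin in SKBR3 and 1 for rapamycin in HB4a. They became 2 for doxorubicin in HB4a and for the combined response of C5.2 against HB4a. With the replicate block and only the arrays compared, chosen after seeing the data, the counts that moved became 0 for both drugs against rapamycin in HB4a, and 1 for rapamycin response of C5.2 against HB4a, and 2 for both drugs against doxorubicin in HB4a, both drugs against rapamycin in C5.2, rapamycin in SKBR3, SKBR3 against HB4a in vehicle, the combined response of C5.2 against HB4a, rapamycin response of SKBR3 against HB4a, and 3 for doxorubicin in HB4a, both drugs against doxorubicin in C5.2, rapamycin response of SKBR3 against C5.2, and 4 for rapamycin in HB4a, both drugs against doxorubicin in SKBR3, doxorubicin response of SKBR3 against C5.2, and 5 for doxorubicin response of SKBR3 against HB4a.

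Leaving out 1 array at a time gave 3 to 4 calls for both drugs in HB4a, 1 to 2 in C5.2 and 3 to 4 in SKBR3, 1 to 1, 0 to 0 and 2 to 4 for doxorubicin, and 1 to 2, 0 to 1 and 0 to 2 for rapamycin. Both drugs against doxorubicin gave 0 to 1, 0 to 2 and 1 to 3, against rapamycin 1 to 1, 0 to 0 and 2 to 3, and against the sum 0 to 0 in each. In vehicle the range was 4 to 4 for C5.2 against HB4a, 5 to 6 for SKBR3 against HB4a and 4 to 5 for SKBR3 against C5.2. The responses of those 3 pairs gave 0 to 0, 1 to 2 and 2 to 3 for doxorubicin, 0 to 0, 1 to 2 and 0 to 1 for rapamycin, and 0 to 2, 0 to 0 and 3 to 4 for both drugs.

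Of 234 differences of single genes, 203 stayed as they were with the replicate block, called or not called. A further 31 gained a call, and none lost one. The numbers did not pair the combined arrays of HB4a (lowest r = -0.569), those of C5.2 with vehicle (-0.1) or the vehicle levels of SKBR3 with another line (-0.116 and -0.063), so blocked calls there show no more than a shared number. Genes near background, such as NFKB2, and single weak calls limit what these arrays can show.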
